A study of Mus musculus with 28 samples.

Results

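The Hox genes of MN1 cells and cortical neurons were followed in ribosome footprints and in total mRNA. Members were the protein-coding mouse genes whose symbol starts with Hoxa, Hoxb, Hoxc or Hoxd followed by a number. This gave 39 genes of the 45513 in the count tables, or of the 21578 that are protein-coding. The Hoxa cluster held 11 of them, the Hoxb cluster 10, the Hoxc cluster 9 and the Hoxd cluster 9. The rule itself uses no measured value, but it was set with earlier results of these data known.

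Hox genes encode homeodomain transcription factors that give cells a position along the head to tail axis of the embryo. They lie in clusters, and their order along the cluster follows the order of their expression domains, with low numbers anterior and high numbers posterior. The hindbrain and spinal cord carry Hox expression, and the forebrain, from which the cerebral cortex arises, lies anterior to the Hox domains. In spinal motor neurons Hoxc6 marks the forelimb level, Hoxc9 the thoracic level and Hoxc10 the lumbar level.

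MN1 is a clonal hybrid line of mouse spinal motor neurons and neuroblastoma cells, used here between passages 10 and 12. MN1 cultures received a plasmid by transient transfection, which encoded GFP in 2 of them, hTDP-43 in 2 and hTDP-43 A315T in 2, and all 6 received cycloheximide at 100 µg/ml for 3 min before lysis. hTDP-43 is human TDP-43, an RNA-binding protein, expressed here with FLAG and V5 tags from a pCMV plasmid, and A315T is a mutation found in patients. Neurons were cortical cells of embryonic day 16 C57BL/6J mice, grown for 14 days with cytosine arabinoside added during culture and not treated with cycloheximide before lysis. They came from non-transgenic littermates (WT, 2 cultures) or from mice hemizygous for a transgene of hTDP-43 (3 cultures) or hTDP-43 A315T (3 cultures) driven by the prion protein (Prp) promoter. Each of the 14 cultures gave a footprint and a total mRNA library, 28 in all. Cell type, strain of origin, transformation, cycloheximide and the way TDP-43 was expressed all change together between MN1 cells and neurons and cannot be told apart. The labels do not state that replicate cultures were independent, so p-values measure the spread between these cultures only.

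Library depth, as reads counted on exons, was 1328528 to 2988339 in MN1 total mRNA and 332370 to 1219222 in MN1 footprints. In neurons it was 600385 to 6969578 in total mRNA and 166064 to 2528820 in footprints. A count of 3 stood for 0.48 to 6.72 CPM (the reads of a gene relative to the scaled size of its library) in total mRNA libraries of neurons and for 1.27 to 20.04 CPM in their footprint libraries. Intervals given with counts cover counting error only, at the 95% level. Where a side held no reads, it was set to a floor of 3 counts. Folds against that floor take the reads of the other side as observed, without their counting error. In total mRNA, 2 neuron libraries stood apart, WT replicate 3 with 18.8% of reads on Lars2 and hTDP-43 replicate 3 with 14.1%, against 3.09% to 7.49% in the other neurons. Tardbp, whose reads can include those of the human sequence, was at 224 to 246 CPM in GFP and at 347 to 426 CPM in the TDP-43 transfected MN1 total mRNA. In neuron total mRNA Tardbp was at 65.4 to 112 CPM in WT and at 58.3 to 88.1 CPM in the transgenic cultures.

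The homeobox, the 180 bases that encode the DNA-binding domain, is shown for the 3 Hoxc genes that lead in MN1 cells and for Hoxb9, which leads in neurons. All 4 were read from the GENCODE M21 transcripts of GRCm38 and are written on the coding strand. They lie at chr15:102983930-102984109 (+) for Hoxc9, chr15:102970848-102971027 (+) for Hoxc10, chr15:103010754-103010933 (+) for Hoxc6 and chr11:96274659-96274838 (+) for Hoxb9. Capitals mark the codons of the conserved stretch of the DNA-contacting helix, by which the homeobox was located in all 39 genes.
Hoxc9: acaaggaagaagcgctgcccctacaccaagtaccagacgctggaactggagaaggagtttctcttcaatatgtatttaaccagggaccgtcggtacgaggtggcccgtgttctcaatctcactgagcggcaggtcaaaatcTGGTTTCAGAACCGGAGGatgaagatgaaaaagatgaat
Hoxc10: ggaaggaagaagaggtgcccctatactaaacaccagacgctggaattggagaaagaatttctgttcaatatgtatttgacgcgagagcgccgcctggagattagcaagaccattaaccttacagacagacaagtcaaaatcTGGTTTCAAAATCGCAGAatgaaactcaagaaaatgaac
Hoxc6: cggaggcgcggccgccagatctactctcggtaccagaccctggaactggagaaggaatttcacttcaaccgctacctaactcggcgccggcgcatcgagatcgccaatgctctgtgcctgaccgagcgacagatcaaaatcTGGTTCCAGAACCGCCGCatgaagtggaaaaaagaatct
Hoxb9: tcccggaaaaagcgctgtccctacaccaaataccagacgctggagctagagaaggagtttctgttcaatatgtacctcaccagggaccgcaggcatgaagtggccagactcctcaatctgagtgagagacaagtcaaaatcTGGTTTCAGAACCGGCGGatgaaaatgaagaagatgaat

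The Hoxc9 and Hoxb9 homeoboxes were the same at 151 of 180 bases (83.9%), with a longest shared run of 24 bases. Hoxc9 and Hoxc10 were the same at 129 bases (71.7%). Over whole transcripts, 0.213% of the 30-base words of Hoxc9 also occurred in another Hox gene. The share was 7.39% for Hoxc10, whose exons overlap those of Hoxc5 over 8.7% of their length, and reads there were not counted. Values of Hoxd3, Hoxd4 and Hoxb3 are uncertain, since 62.8%, 52.3% and 52.9% of their exon bases lie in exons of other genes.

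MN1 cells carried a posterior and mainly Hoxc set of Hox transcripts. Of the 1358 reads on Hox genes in MN1 total mRNA, 80% fell on the Hoxc cluster, 14.8% on Hoxa, 3.61% on Hoxb and 1.55% on Hoxd. Hoxc9 and Hoxc10 together took 62.3%. Their share was lowest in GFP replicate 2 (58.1%, exact binomial interval 52% to 64.1%) and highest in hTDP-43 replicate 2 (68.1%, 59.8% to 75.6%). The summed Hox level was 97.3 CPM ± 10.1 (SD, n = 6) and differed little between the 6 cultures, from 85.2 to 113 CPM. In bulk samples fewer cells of a type and less RNA per cell cannot be told apart.

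**Figure D1:**
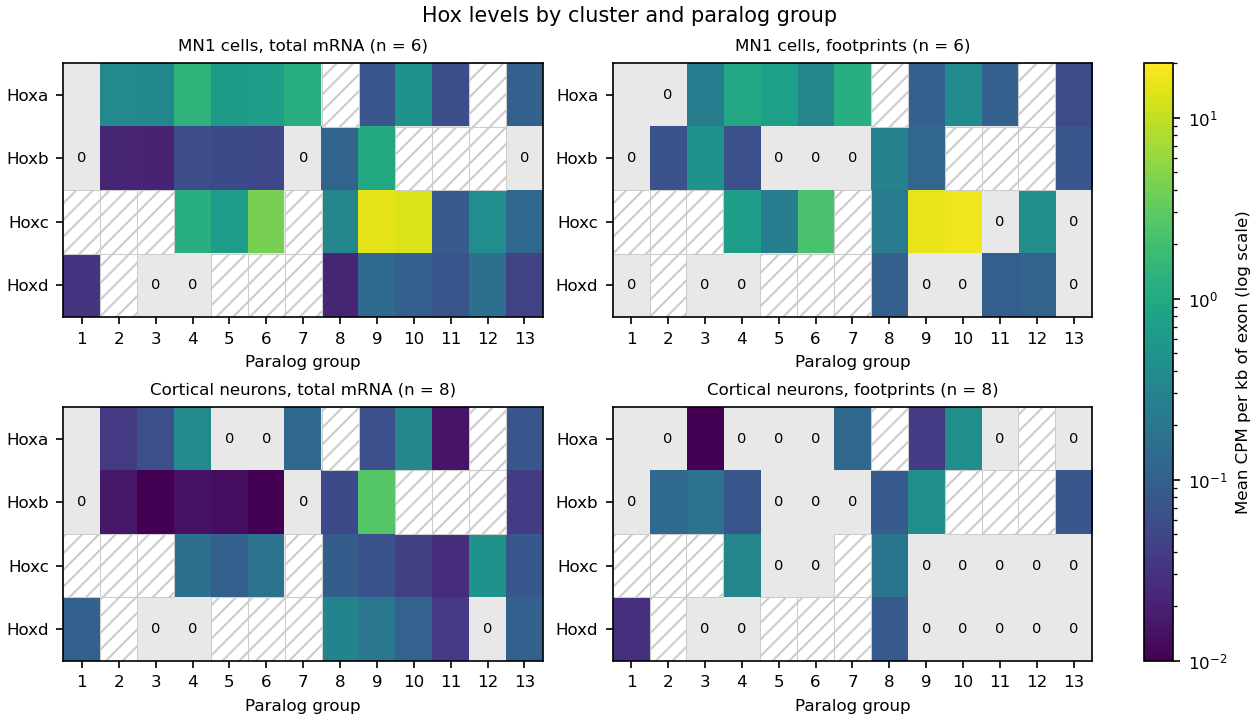
Mean level of each Hox gene, in CPM per kb of exon on a log colour scale, by cluster (rows) and paralog group (columns) in MN1 cells (6 cultures) and cortical neurons (8 cultures), total mRNA on the left and footprints on the right. Cells with 0 had no read, hatched cells hold no gene, a grey cell without a number is not shown, and levels under 0.01 are drawn at 0.01. Hoxc9 and Hoxc10 stand out in both MN1 maps, and Hoxb9 in neuron total mRNA.

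Hoxc9 (ENSMUSG00000036139, chr15:102976439-102985099) had the highest mean of the Hox genes in MN1 total mRNA, close to Hoxc10, at 14.6 CPM per kb ± 1.83 (SD, n = 6). The GFP cultures were at 35.6 and 33.7 CPM, those with hTDP-43 at 29.7 and 35.7 CPM and those with the mutant at 35 and 43.3 CPM. The 3 groups overlapped. Per kb of exon, Hoxc9 lay above 70.7% of the 12801 genes tested.

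Hoxc10 (ENSMUSG00000022484, chr15:102966796-102971893) followed at 13.4 CPM per kb ± 1.12 (SD, n = 6). The GFP cultures were at 27.9 and 23.2 CPM, those with hTDP-43 at 24 and 23.6 CPM and those with the mutant at 27.2 and 27.4 CPM. Hoxc9 exceeded Hoxc10 per kb in 5 of 6 cultures, by 1.09 times on the means, and the ranges overlapped. The length of Hoxc10 includes the bases shared with Hoxc5, where reads were not counted. In MN1 footprints Hoxc10 had the higher mean, 17.2 against 15.7 CPM per kb of exon, a length that includes untranslated parts. Before division by length Hoxc9 was the higher one there, at 38.2 against 32.8 CPM. The order of the pair is not resolved.

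Hoxc6 (ENSMUSG00000001661, chr15:102998257-103011881) stood clearly below both, at 4.21 CPM per kb ± 0.934 (SD, n = 6). Its level was 8.76 and 12.3 CPM for GFP, 10.4 and 6.66 CPM for hTDP-43 and 12.7 and 10.04 CPM for the mutant. Its range did not overlap that of Hoxc10 above it or of Hoxa4 below it.

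Hoxc8, whose position lies between Hoxc6 and Hoxc9 in the cluster, had only 12 reads over the 6 libraries (0.322 CPM per kb ± 0.264). The levels along the cluster did not change evenly, with Hoxc4 at 1.19, Hoxc5 at 0.647, Hoxc6 at 4.21, Hoxc8 at 0.322, Hoxc9 at 14.6 and Hoxc10 at 13.4 CPM per kb. Hoxc11, Hoxc12 and Hoxc13, beyond Hoxc10, were at or under 0.417 CPM per kb.

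In the Hoxa cluster the 3 highest members were Hoxa4, Hoxa7 and Hoxa6. Hoxa4 was at 1.41 CPM per kb ± 0.784, Hoxa7 at 1.14 ± 0.301 and Hoxa6 at 0.688 ± 0.61 (SD, n = 6 each). Hoxa7 had from 5 to 17 reads and was present in every MN1 library. The ranges of Hoxa4, Hoxc4, Hoxa7 and Hoxb9 overlapped with each neighbour in the order, so these 4 are not ranked.

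The Hoxb and Hoxd clusters were low. In Hoxb the 3 highest members were Hoxb9 at 1 CPM per kb ± 0.663, Hoxb8 at 0.116 ± 0.097 and Hoxb4 at 0.0602 ± 0.0933, the last pair from 4 and 2 reads. In Hoxd they were Hoxd12, Hoxd9 and Hoxd10, at 0.162, 0.142 and 0.103 CPM per kb from 5, 4 and 3 reads. Of the 39 genes, 5 had no read in MN1 total mRNA, 21 had 1 to 9 reads, 10 had 10 to 99, and 3 had 100 or more.

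Cortical neurons carried few Hox reads, and Hoxb9 had more of them in total mRNA than any other Hox gene. In total mRNA 305 reads fell on Hox genes over 8 libraries, of which 51.1% were on the Hoxb cluster. The summed Hox level was 15.1 CPM ± 9.27 (SD, n = 8), from 6.18 CPM in hTDP-43 A315T replicate 2 to 34.4 CPM in WT replicate 3. WT replicate 3 is one of the libraries rich in Lars2 and lay above the other 7, and the part of Lars2 in this was not tested.

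Hoxb9 (ENSMUSG00000020875, chr11:96271457-96276595) had 143 of these reads and was present in all 8 neuron total mRNA libraries, at 2.7 CPM per kb ± 1.59 (SD, n = 8). Its lowest level was 3.53 CPM and its highest 13.7 CPM, in WT replicate 3. Per kb it lay above 26.6% of the genes tested. The next members were Hoxc12 at 0.501 CPM per kb ± 0.81, from 13 reads in 4 libraries, and Hoxa4 at 0.364 ± 0.99, from 3 reads in 2 libraries. Only Hoxb9 had reads in every neuron library of total mRNA.

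The contrast between the cell types asks whether the 2 models differ in axial identity. In total mRNA, 6 Hox genes passed the filter on low counts (at least 10 reads in enough libraries) and all 6 were called by edgeR's quasi-likelihood test at an adjusted p under 0.05. Here 81% of the 12801 genes tested were called, 38.4% as higher and 42.6% as lower in MN1 cells, so a call by itself sets no gene apart. The other 33 Hox genes were not tested. Hoxc9, Hoxc10, Hoxc6, Hoxa7 and Hoxc4 were higher in MN1 cells, and Hoxb9 was lower. The genes called as higher passed the filter through MN1 cells alone. No neuron library held more than 2, 1, 7, 4 and 5 of their reads, in that order. Their calls were fixed by the filter and are no test.

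Hoxc9 had 491 reads in MN1 total mRNA and 4 in neurons, 2 of them in WT replicate 3 and 2 in hTDP-43 A315T replicate 1. The ratio of the summed levels was 210 (exact interval 81.6 to 775). The fitted log2 fold change was 7.75 ± 0.43 (SE). It depends on the prior count of the fit, because the 3 hTDP-43 neuron libraries were at 0, and it was 7.36 with the cell type as the only term.

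Hoxc10 had 355 reads in MN1 cells and 2 in neurons, a ratio of 304 (83.6 to 2520). Its fitted log2 fold change was 8.31 ± 0.408 (SE). This value too depends on the prior count of the fit, because the WT and hTDP-43 neuron libraries held no Hoxc10 read. For Hoxc9 and Hoxc10 the lowest MN1 library was at 29.7 and 23.2 CPM, and the highest neuron library at 0.916 and 0.442 CPM. The share of all genes with such a gap was not counted.

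Hoxc6 had 147 reads in MN1 cells and 8 in neurons, a ratio of 31.5 (15.6 to 74.3). Of the 8 neuron reads, 7 came from WT replicate 3. The fitted log2 fold change was 5.6 ± 0.678 (SE), and 7.21 without that culture.

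Hoxa7 had 60 and 8 reads, a ratio of 12.8 (6.12 to 31.1), and Hoxc4 had 42 and 10 reads, a ratio of 7.2 (3.55 to 16.1). Their fitted log2 fold changes were 3.53 ± 0.684 and 3.04 ± 0.661 (SE). For Hoxa7 and Hoxc4 the MN1 libraries began at 2.28 and 1.82 CPM, and the neuron libraries reached 1.83 and 1.08 CPM. How many of all genes are apart in this way was not counted.

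Hoxb9 went the other way. In MN1 cells it was at 3.83 and 2.54 CPM for GFP, 0 and 1.21 CPM for hTDP-43 and 3.32 and 4.56 CPM for the mutant, against a neuron median of 5.18 CPM. The cell types overlapped. The ratio of MN1 cells to neurons was 0.443 (0.3 to 0.64) and the fitted log2 fold change -1.82 ± 0.478 (SE, adjusted p = 0.00277).

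When only the GFP and WT cultures were compared, 2 of 5 tested Hox genes, Hoxc9 and Hoxc10, were called. In that comparison Hoxc6 had a log2 fold change of 2.83, Hoxa7 of 2.47 and Hoxb9 of -1.69, and none of the 3 was called. Without both cultures rich in Lars2, an alternative added after seeing the data, the 6 genes were called in the same directions, together with Hoxa3 and Hoxa4.

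**Figure D2:**
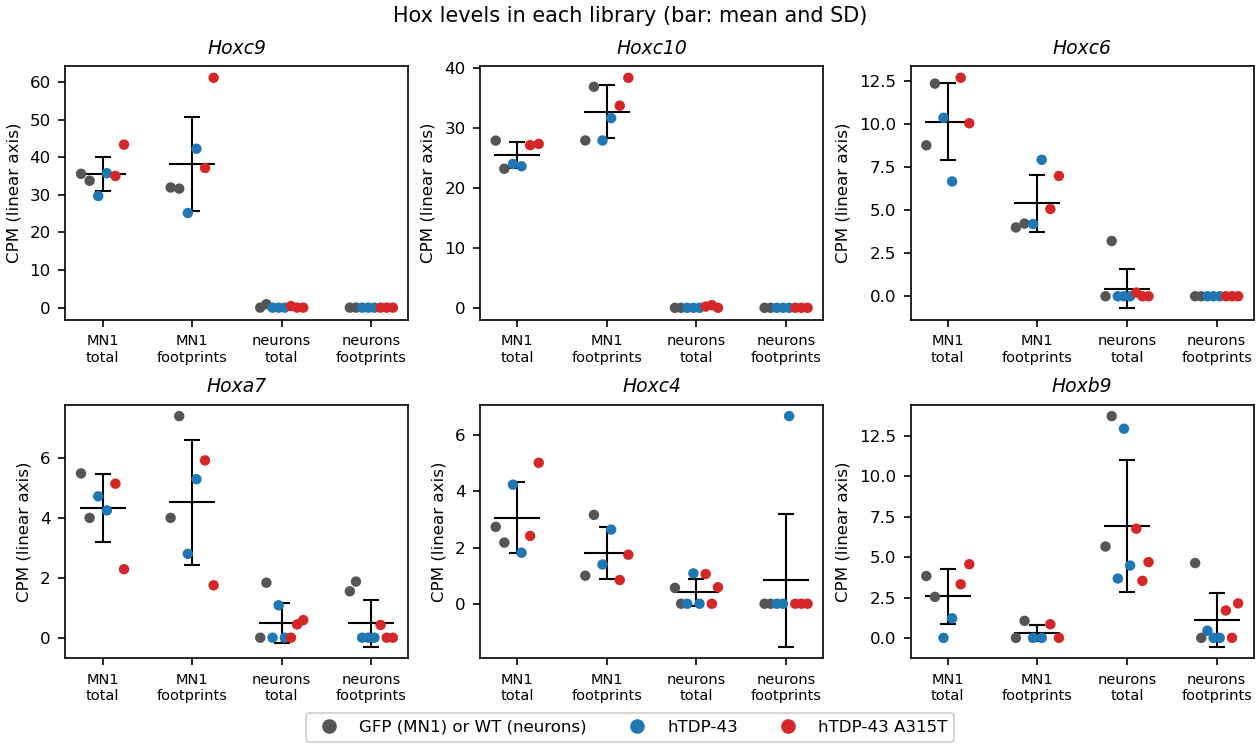
Level of the 6 tested Hox genes in every library, in CPM on linear axes that differ between genes. Points are libraries coloured by condition, and the bars give the mean and SD of 6 MN1 cultures or 8 neuron cultures for each library type. Hoxc9 and Hoxc10 lie near 0 in all neuron libraries, and Hoxb9 is highest in neuron total mRNA.

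Several other, more anterior Hox genes had reads in MN1 total mRNA and none or few in neurons. Hoxa5 had 17 reads in MN1 cells and 0 in neurons, 9.71-fold higher against a floor of 3 counts over the group. Hoxa6 had 9 and 0 reads, 5.14-fold higher against that floor. The counting error of the MN1 reads is not in these 2 folds, so they are not lower limits. Hoxa3 had 29 and 4 reads (12.4 times, 4.36 to 48.6), Hoxc5 27 and 5 reads (9.25 times, 3.51 to 30.8), and Hoxa4 33 and 3 reads (18.8 times, 5.91 to 96). Hoxa10, with 22 reads in each cell type, had a ratio of 1.71 whose interval (0.905 to 3.24) includes 1. The intervals of Hoxc8 (2.57 times, 0.966 to 7.25) and Hoxa9 (2.06 times, 0.523 to 8.5) include 1 too. Hoxd8 had 1 read in MN1 cells and 14 in neurons, a ratio of 0.122 (0.00289 to 0.804).

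Hoxc9 and Hoxc10 also led the footprints. In MN1 footprints 463 reads fell on Hox genes, 80.8% of them on the Hoxc cluster and 71.7% on Hoxc9 and Hoxc10. The summed level was 96.9 CPM ± 16.2 (SD, n = 6). Neuron footprints held 63 Hox reads over 8 libraries, with 24 of the 39 genes at 0, and hTDP-43 replicate 2 held none.

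Hoxc9 footprints were at 31.9 and 31.6 CPM for GFP, 25.1 and 42.2 CPM for hTDP-43 and 37.1 and 61.1 CPM for the mutant. It had 175 reads in MN1 footprints and 0 in neuron footprints, 99.1-fold higher against the floor of 3 counts. Hoxc10 footprints were at 27.9 and 36.9 CPM for GFP, 27.9 and 31.7 CPM for hTDP-43 and 33.8 and 38.4 CPM for the mutant. It had 157 reads against 0, 88.9-fold higher against that floor. Hoxc6, with 24 reads against 0, was 13.6-fold higher against the floor, and Hoxa7, with 23 against 4, was 9.77 times higher (3.34 to 38.9).

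In the fit of footprints, Hoxc9 and Hoxc10 were the only Hox genes that passed the filter, with fitted log2 fold changes of 8.08 and 7.91. Both passed it through MN1 cells alone, since all neuron libraries were at 0, so a call as higher was fixed by the filter and is no test, and the fitted values depend on the prior count. Of the 10698 genes tested, 82.6% were called, 39.9% as higher and 42.7% as lower in MN1 cells.

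The footprints of a gene relative to its total mRNA were compared within MN1 cells, where each culture gave both libraries. The fit had terms for condition and library type but no culture block, so its p-values do not use this pairing. Of 10212 genes tested 59.5% were called, and of the 3 Hox genes tested, Hoxc10 rose in footprints, Hoxc6 fell and Hoxc9 did not pass the test. Total mRNA was selected by its poly(A) tail and fragmented while footprints were not, and that part of a difference was not tested.

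Hoxc10 was higher in footprints by 0.43 on the log2 scale (SE 0.14, adjusted p = 0.0146). Hoxc6 had 24 footprint reads against 147 total mRNA reads and fell by 0.96 on the log2 scale (SE 0.288, adjusted p = 0.00814). Hoxc9 had a log2 fold change of 0.13 ± 0.167 (SE, adjusted p = 0.531). The Hoxc10 call was lost without GFP replicate 2 (log2 fold change 0.36), without hTDP-43 A315T replicate 2 (0.39) and with no filter on low counts (0.33). The Hoxc6 call was kept in all of the alternatives run, and its log2 fold change ranged from -1.12 to -0.82 when single cultures were left out.

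**Figure D3:**
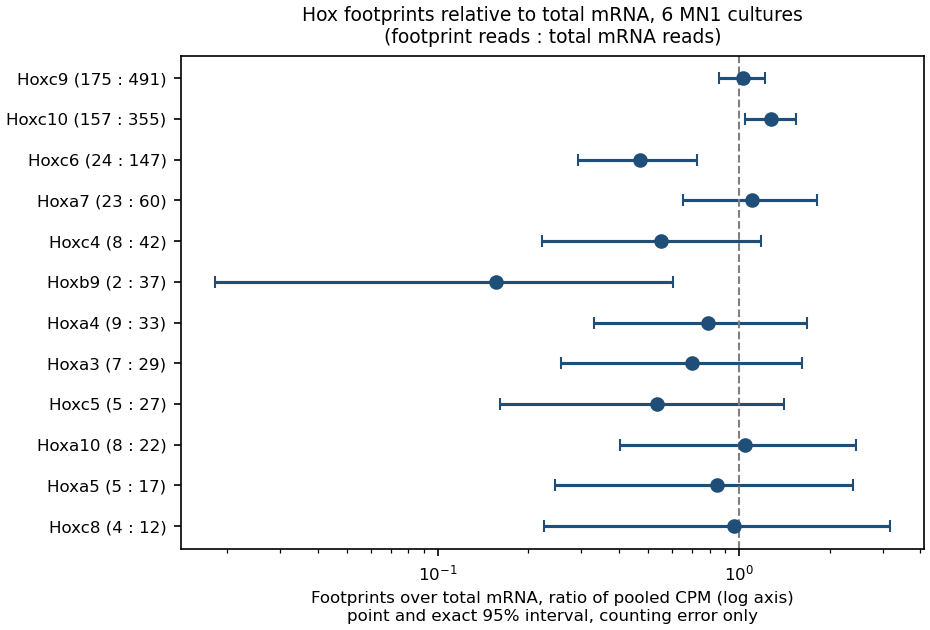
Ratio of footprint to total mRNA level, each from the summed reads of the 6 MN1 cultures over their summed scaled library sizes, for 12 Hox genes with at least 10 total mRNA reads. Points are ratios on a log axis with exact 95% intervals for counting error only, and the dashed line marks 1. Hoxc10 lies above 1, Hoxc6 and Hoxb9 below 1, and the intervals of the other 9 genes include 1.

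Hoxb9 had few footprints for its mRNA in both cell types. It had 2 footprint reads against 37 total mRNA reads in MN1 cells, a ratio of 0.156 (exact interval 0.0182 to 0.605), and 13 against 143 in neurons, a ratio of 0.265 (0.138 to 0.467). In neurons the 13 reads came from 4 libraries, with 6 in WT replicate 2, 4 in hTDP-43 A315T replicate 1, 2 in hTDP-43 A315T replicate 3 and 1 in hTDP-43 replicate 1. Hoxb9 did not pass the filter of the fit, and with no filter its log2 fold change in MN1 cells was -2.56 (edgeR, adjusted p = 0.00402). Under DESeq2 it was -2.08 (adjusted p = 0.0806).

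The effect of TDP-43 on Hox genes was tested in each cell type and library type between every pair of groups. The comparisons within a cell type share groups. No Hox gene was called in any of the 12 comparisons by edgeR's quasi-likelihood test, and DESeq2 called none either. Calls over all genes were rare too, and each was the same single gene, Gm13886, named after its values were seen. In MN1 footprints 0.0115% of genes were called with hTDP-43 A315T against GFP and 0% in the other comparisons. In MN1 total mRNA 0.00965% were called with hTDP-43 A315T against GFP, 0.01% with hTDP-43 against GFP and 0% between the TDP-43 groups. In neurons 0% were called in all 6 comparisons. At an unadjusted p under 0.05 there were 67 to 548 genes per comparison in MN1 cells and 44 to 419 in neurons, and DESeq2 called 0 to 11 genes.

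In MN1 total mRNA 5 Hox genes were tested with hTDP-43 A315T against GFP, 4 between the TDP-43 groups and 3 with hTDP-43 against GFP. Hoxc9 had log2 fold changes of 0.1 ± 0.215, 0.16 ± 0.236 and -0.06 ± 0.231 (SE) in these comparisons. Those of Hoxc10 were 0.03 ± 0.234, 0.09 ± 0.234 and -0.07 ± 0.256. Each was smaller than its SE.

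In MN1 footprints only Hoxc9 and Hoxc10 were tested. With hTDP-43 A315T against GFP, Hoxc9 had a log2 fold change of 0.55 ± 0.315 (SE, unadjusted p = 0.11 and adjusted p = 1 by edgeR) and Hoxc10 of 0.12 ± 0.294. Both A315T cultures were above both GFP cultures for Hoxc9, and the share of all genes apart in this way was not counted. Without A315T replicate 2, the highest library, the Hoxc9 log2 fold change was 0.17. In neurons Hoxb9 was the only Hox gene tested, in total mRNA, and none was tested in footprints. Its level was 5.66 and 13.7 CPM for WT, 3.68, 13 and 4.48 CPM for hTDP-43 and 6.76, 3.53 and 4.7 CPM for the mutant. Its log2 fold change was -0.89 ± 0.529 with hTDP-43 A315T against WT and -0.52 ± 0.712 with hTDP-43 against WT (SE). Without WT replicate 3 they were -0.13 and 0.2, and without WT replicate 2 the former was -1.38. With the replicate block the latter was 0.23.

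**Figure D4:**
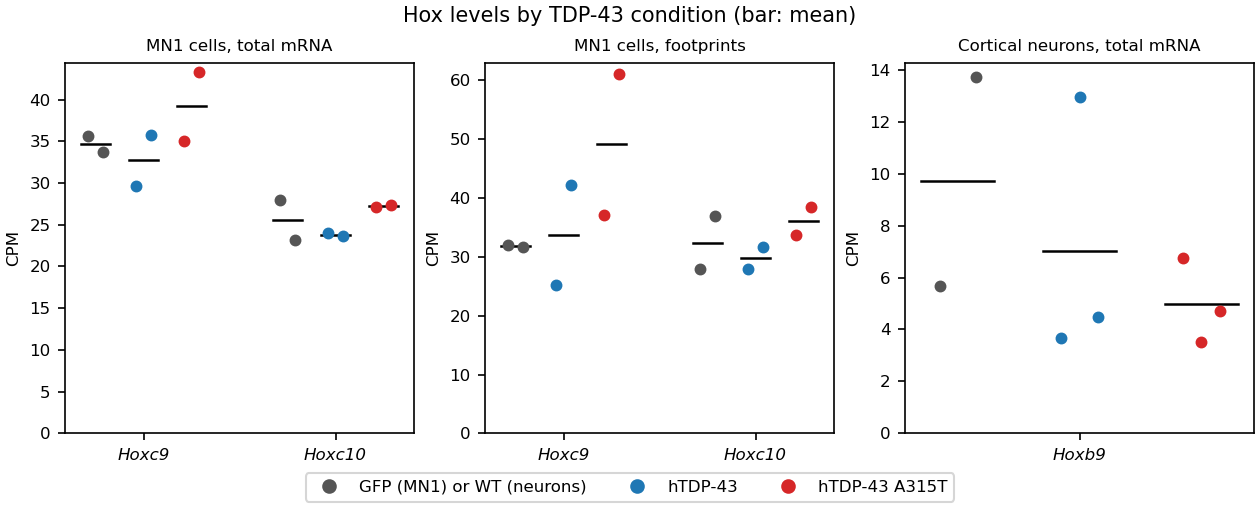
Level in CPM of Hoxc9 and Hoxc10 in MN1 total mRNA and footprints and of Hoxb9 in neuron total mRNA, by TDP-43 condition. Points are cultures, bars are group means, and every axis starts at 0. The groups overlap for Hoxb9, and the highest Hoxc9 footprint value is 61.1 CPM in an hTDP-43 A315T culture.

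Hox proteins bind DNA with PBX, MEIS and PREP partners, and such partners were expressed in both cell types. Beside the counts of this and the following lists stand the shares over all genes tested in total mRNA, 38.4% called as higher and 42.6% as lower in MN1 cells. The counts of cofactors and upstream regulators lie near them. Of 9 cofactors tested in total mRNA, 3 were higher in MN1 cells, 5 lower and 1 not called, with a median log2 fold change of -0.69 beside -0.09 over all genes tested. Pknox2, which encodes a PREP protein, was lower in MN1 cells, with 14 reads against 1974 in neurons (log2 fold change -6.41 ± 0.326, SE, edgeR adjusted p = 1.41e-10). Meis1 rose by 2.1 ± 0.256 and Pknox1 by 1.27 ± 0.15 on the log2 scale (SE). In footprints the counts were also 3 higher, 5 lower and 1 not called, with Meis1 at 2.58.

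Polycomb proteins keep Hox clusters silent, and trithorax proteins oppose them. Of 16 Polycomb genes 9 were higher in MN1 cells, 2 lower and 5 not called (median 0.75), beside 38.4% and 42.6% over all genes. Cbx2 and Ezh2, which encodes the methyltransferase of the complex, had the largest rises, 4.28 ± 0.183 and 3.86 ± 0.258 on the log2 scale (SE). Jarid2 and Ezh1 were lower, by -0.69 and -0.38. Of 8 trithorax and demethylase genes 4 were higher, 1 lower and 3 not called (median 0.35), beside the same 38.4% and 42.6%. The higher ones included Rbbp5 (1.53) and Ash2l (1), and the lower one was Kmt2a (-1.12). In footprints Kmt2a had a log2 fold change of -0.36 (edgeR, adjusted p = 0.0952) and was not called, and the 1 gene called as lower was Men1 (-0.68), named after its values were seen.

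Genes that act upstream of Hox clusters, the CDX factors and the retinoic acid pathway, were mixed. Of 12 listed, 7 were tested, 3 of them higher and 4 lower in MN1 cells (median -1.12), beside 38.4% and 42.6% over all genes. The retinoic acid receptor Rarg was higher (2.71 ± 0.179), as was Rara (1.07 ± 0.154). Rarb was lower, with 3 reads in MN1 cells against 447 in neurons (neurons over MN1 87 times, exact interval 29.6 to 423). Rarb passed the filter on low counts through neurons alone, so its direction was fixed and is no test. Egr2 was lower too (-4.55 ± 0.651). Cdx1, Cdx2 and Cdx4 had 3, 0 and 1 reads in MN1 cells and 1, 3 and 5 in neurons.

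Markers were used to check the labels. Of 14 forebrain factors tested 11 were lower in MN1 cells, 2 higher and 1 not called (median -3.44). Emx1, a factor of the dorsal telencephalon, had 0 reads in MN1 cells and 793 in neurons, 154-fold lower against the floor of 3 counts. Otx1 and Pax6 were higher in MN1 total mRNA (1.55 ± 0.356 and 1.19 ± 0.348). In footprints 12 forebrain factors were tested and all 12 were lower, beside 42.7% over all genes. Otx1 and Pax6 did not pass the filter on low counts there, so their direction in footprints is not known. All 9 neuronal markers were lower in MN1 cells (median -6.9). Among them were Gad1 with 3 reads against 8844 (neurons over MN1 1721 times, 589 to 8347) and Rbfox3 (-9.07 ± 0.294). Emx1 and Gad1 passed the filter on low counts through neurons alone, so their direction was fixed and is no test. The counts and medians of the lists include such genes.

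Of 10 spinal motor neuron and cholinergic genes 6 were tested in total mRNA, 4 of them higher and 2 lower in MN1 cells (median 3.14). In footprints 4 were tested, 2 of them higher and 2 lower, with a median of 0.03. These 4 kept their directions from total mRNA. The genes tested in total mRNA only, Isl2 among them, were higher there, so the medians cover different genes. Isl2 (3.79 ± 0.595) and Slc18a3, the vesicular acetylcholine transporter (3.46 ± 0.27), were higher, and Pou3f1 (-5.95 ± 0.323) and Foxp1, a partner of Hox proteins in limb motor neurons (-3.2 ± 0.243), were lower. The defining marker Mnx1 was low in MN1 cells, at 1.05 CPM ± 0.262 from 14 reads, and Chat was at 1.22 ± 0.87 (SD, n = 6). All 8 autonomic and neuroblastoma factors tested were higher in MN1 cells (median 4.29), led by Gata2 and Phox2a. Gata2 had 4579 reads against 0, 2615-fold higher against the floor of 3 counts. Phox2a had 5111 against 2, 4378 times higher (1211 to 36160). Gata2 and Phox2a passed the filter on low counts through MN1 cells alone, so their direction was fixed and is no test. Isl1, expressed in motor and autonomic neurons, was at 33 CPM in MN1 cells.

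Genes of glia and other non-neuronal cells were present in neuron cultures. Of 15 listed, 9 were tested, 8 of them lower and 1 higher in MN1 cells (median -6.04). The summed level of the list ranged from 107 to 199 CPM in neuron and from 14.6 to 24.7 CPM in MN1 total mRNA. Olig1 had 675 reads in neurons against 1 in MN1 cells (394 times, 70.5 to 15590). Aldh1l1 had 334 against 0 (65-fold lower in MN1 cells against the floor of 3 counts). Olig1 and Aldh1l1 passed the filter on low counts through neurons alone, so their direction was fixed and is no test. Cldn5 was at 0 in both, and Pecam1 was higher in MN1 cells (2.69 ± 0.43). The part of these cells in the Hoxb9 reads of neurons was not tested.

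**Figure D5:**
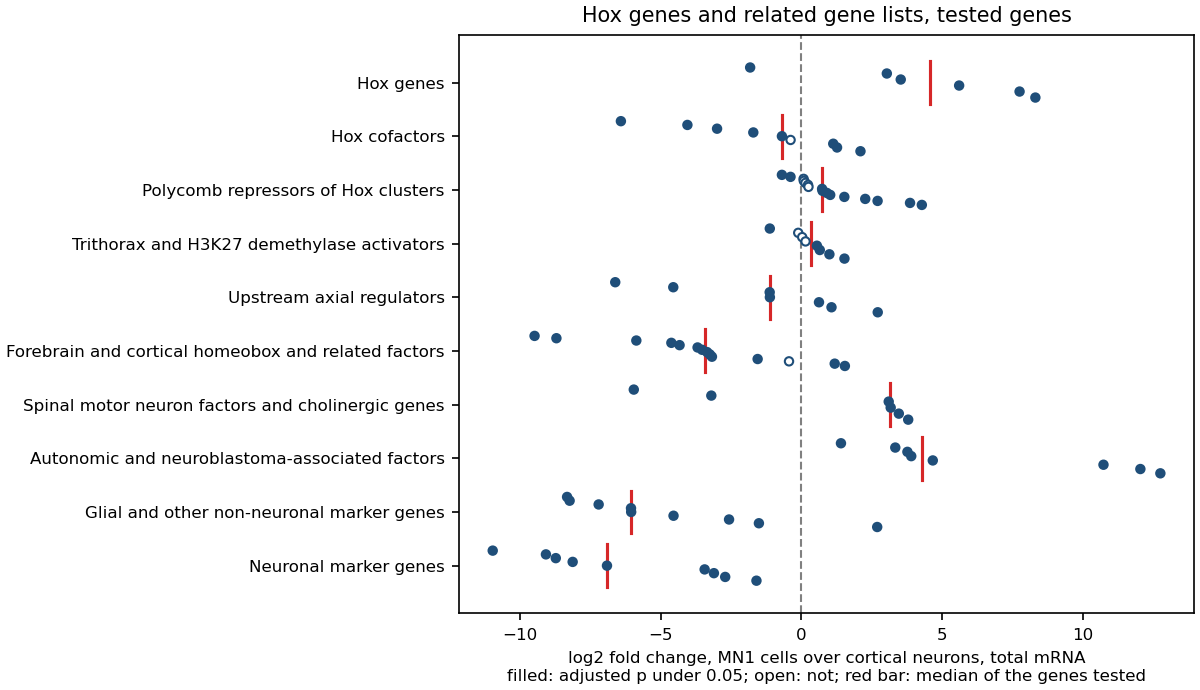
Log2 fold change of MN1 cells over cortical neurons in total mRNA for the tested Hox genes and the tested genes of 9 related lists. Each point is a gene, filled where the adjusted p is under 0.05, and the red bar is the median of the genes tested. Of the 6 Hox genes, 5 lie to the right of 0 and Hoxb9 lies to the left.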

How the data were processed

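Counts of reads per gene were taken as deposited, 1 table per library. The authors clipped adapters with cutadapt 1.8.1, used Bowtie2 to discard reads from annotated non-coding RNAs, mapped the rest to GRCm38 with TopHat2 and counted unique reads on exons with featureCounts 1.4.4, on both strands and without reads on exons of more than 1 gene. These counts were neither normalized nor pooled. Of 43 non-coding genes inside the clusters, 7 had reads left.

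Symbols came from GENCODE M21, matched by gene ID. Members and gene lists were chosen with earlier results of these data known. Levels are CPM over library sizes scaled by TMM within a library type, divided by exon length where genes are compared. Tests used edgeR 4.0.16 in R 4.3.3 (quasi-likelihood, filterByExpr with minimum count 10 and minimum total 15, adjustment by Benjamini-Hochberg over all genes tested, threshold 0.05), each group a term and cell types compared over the mean of their 3 groups. The SE of a log2 fold change was taken as its size over the square root of the quasi-likelihood F, and none is given where the unadjusted p was over 0.9. The fits were tested on simulated data. DESeq2 1.42.0, size factors, no filter, other groupings and the removal of each culture were alternatives. Intervals are exact, Poisson or conditional binomial. Named genes were the 3 highest per cluster in MN1 total mRNA and the 3 highest in neurons per kb, all members past the threshold in the footprint or TDP-43 fits, and per list the 2 largest called changes in each direction, and other members were chosen after their values were seen. A few genes that the rule names or the counts include are not reported here by name.

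Same-numbered cultures of a cell type carry the same date in the labels, except that 1 GFP footprint library differs in the year. Their deviations from group means had a mean correlation of 0.442 in MN1 total mRNA, 0.336 in MN1 footprints, 0.171 in neuron total mRNA and 0.12 in neuron footprints. The replicate number entered as a block in an alternative, and for footprints against total mRNA the culture did.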

Additional observations from a re-analysis of the deposited data

How the results depend on the processing

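Between MN1 cells and neurons, 6 Hox genes were called in total mRNA and 2 in footprints. Their directions were the same in all of the alternatives in which the gene was tested, while the counts of calls moved. All but Hoxb9 passed the filter through MN1 cells alone, so their directions are no test. In total mRNA 6 were called, 10 under DESeq2, 13 with no filter on low counts, 2 with the GFP and WT cultures only, and 6 to 8 when single cultures were left out. In footprints 2 were called, 4 under DESeq2, 8 with no filter, and 2 in every fit that left out a culture. Of footprints against total mRNA 2 were called, and 1 to 2 when single cultures were left out. In total mRNA the Hoxc9 log2 fold change was 8.75 and that of Hoxa7 4.87 without neurons WT replicate 3, that of Hoxc4 2.37 without neurons hTDP-43 replicate 1, and that of Hoxb9 -3.04 without MN1 hTDP-43 replicate 2, which leaves that group at 0. With the replicate block, or the culture block for footprints against total mRNA, the counts stayed at 6, 2 and 2. No Hox gene was called between TDP-43 groups with the replicate block. That block changed the sign of 1 value, Hoxb9 in neurons with hTDP-43 against WT (0.2285, and -0.5189 without it). None of the values between TDP-43 groups was called. Several changed sign when single cultures were left out, and the cause was not tested. In MN1 footprints Hoxc10 ranged from -0.07565 to 0.3423 for A315T against GFP and from -0.2564 to 0.1603 for hTDP-43 against GFP, where Hoxc9 ranged from -0.2812 to 0.5107. In MN1 total mRNA Hoxc9 ranged from -0.06863 to 0.2762 for A315T against GFP, from -0.01451 to 0.3323 for A315T against hTDP-43 and from -0.1969 to 0.07918 for hTDP-43 against GFP, and Hoxc10 from -0.1393 to 0.2031 for A315T against GFP and from -0.2371 to 0.1002 for hTDP-43 against GFP. In neurons Hoxb9 ranged from -0.9197 to 0.4246 for A315T against hTDP-43 and from -1.285 to 0.1991 for hTDP-43 against WT. The level of Hoxc9 over Hoxc10 was 1.09 per kb and 1.39 without division by length. Depth limits the other members, since 5 had no read and 21 had 1 to 9 over the 6 MN1 total mRNA libraries.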

Other observations

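Hoxb3, chosen after its values were seen, had more footprint than total mRNA reads. It had 12 footprint reads in MN1 cells, from 4 of 6 libraries (4 and 1 in the GFP cultures, 3 in hTDP-43 replicate 1, 4 in hTDP-43 A315T replicate 1), against 1 total mRNA read, a ratio of 34.6 (exact interval 5.12 to 1481). In neurons it had 5 against 1, a ratio of 14.6 (1.63 to 688). Hoxb3 did not pass the filter on low counts. With no filter its log2 fold change in MN1 cells was 4 (edgeR, adjusted p = 0.000501), and 4.37 under DESeq2 (adjusted p = 0.00413). The exons of Hoxb3 share 52.9% of their bases with Hoxb3os, and the part of this overlap was not tested.

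Hoxc12 had 13 total mRNA reads in neurons, 6 in hTDP-43 A315T replicate 1 and 5 in WT replicate 3, and no footprint read.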
